A study of Mus musculus with 16 samples.

Results

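The hippocampus of wild-type mouse fetuses was compared between an enriched environment (EE) and standard habitation (SH), using every hippocampal library of the series. These are 6 of 16 libraries, 3 EE and 3 SH, all from embryonic day 18.5, and the other libraries are of cortex. As background, enriched housing adds objects, space or company to a cage. By the series title the exposure was before birth, and its theme is the AHR-Src pathway. Levels are FPKM, sequenced fragments scaled to transcript length and to the library total, for 15247 genes listed in all 6 tables. The labels do not say whether libraries came from separate fetuses or litters. A p-value here therefore measures only the spread between libraries, part of which may be technical. The labels also do not say whether a library pools several fetuses.

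As background, late in mouse gestation the hippocampus still makes neurons. Radial glia give rise to intermediate progenitors, which divide and leave the cell cycle as immature pyramidal and granule neurons that migrate, extend neurites and form their first synapses. Immediate early genes such as Fos and Egr1 encode transcription factors that are transcribed within minutes of a stimulus, without new protein synthesis, through the MAP kinase, SRF and CREB pathways.

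The tissue label was checked against marker genes. Prox1, a transcription factor of dentate granule cells, ranged from 5.67 to 21.5 FPKM in the hippocampal libraries and from 1.57 to 3.08 FPKM in cortex replicates 1 to 3, and Zbtb20, a repressor needed for hippocampal fields, from 5.59 to 14.4 against 0.632 to 2.27 FPKM. Emx2 and Lef1 were likewise higher in every hippocampal library than in any of those cortical ones. EE replicate 3 had the lowest Prox1 and Zbtb20 of the hippocampal libraries. Drd2, a marker of striatal neurons, was at most 0.894 FPKM.

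The libraries differed most in genes of the choroid plexus. The first principal component took 59.4% of the variance, and 11 of its 20 leading genes belong to the list of choroid plexus epithelium, the tissue that lines the ventricle beside the hippocampus. The summed level of that list was 5340, 11016 and 96.4 FPKM in EE replicates 1, 2 and 3 and 17703, 79.0 and 214 FPKM in SH replicates 1, 2 and 3. Xist, the transcript of the inactive X chromosome, was at 81.1 FPKM in EE replicate 3 and 70.8 FPKM in SH replicate 2 and at most 0.107 FPKM in the other 4, which in turn expressed the Y-linked gene Ddx3y at 10.1 to 15.9 FPKM. Each group therefore held 1 Xist-positive and 2 Y-positive libraries, so the libraries of a group did not all come from the same fetus. Reads recovered from the FPKM steps numbered 16967837 to 21957593 per library, with 453 to 635 for the median gene.

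**Figure D1:**
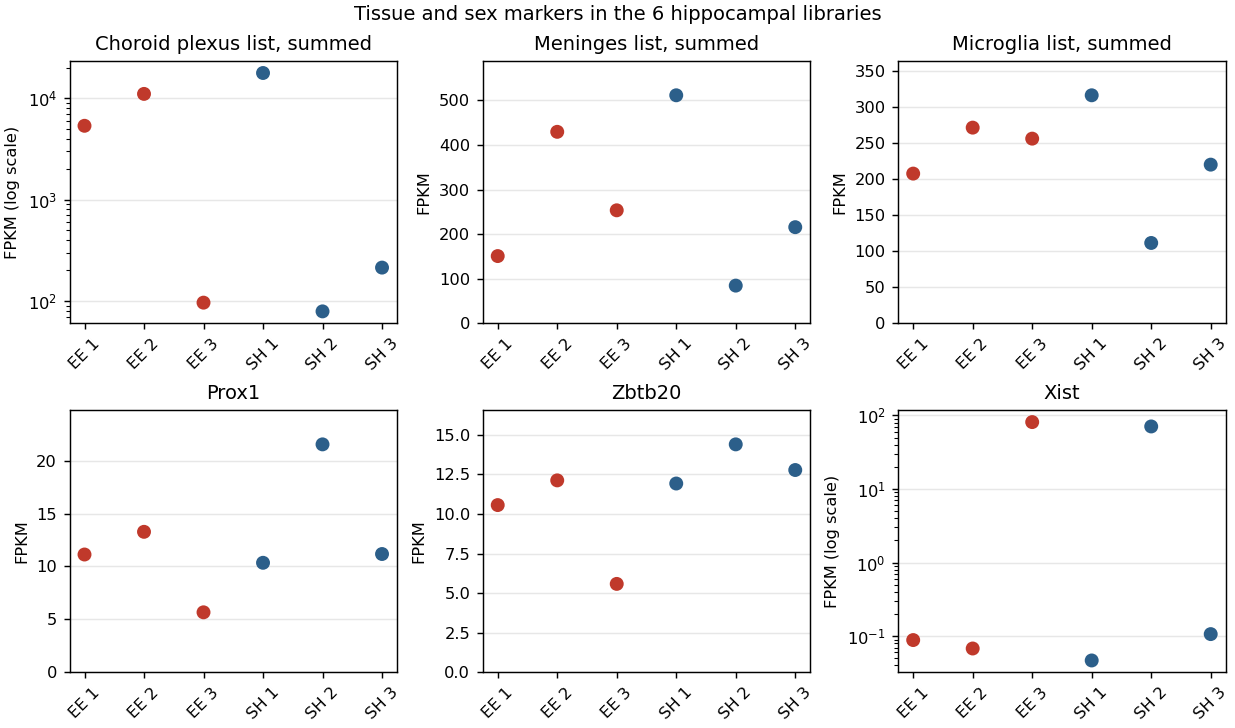
FPKM of 3 summed marker lists and 3 single genes in each library, with EE in red and SH in blue. Choroid plexus genes and Xist are on log scales; the choroid plexus list is at 5340 FPKM or more in EE 1, EE 2 and SH 1 and at 214 FPKM or less in the other 3 libraries, and Xist is high in EE 3 and SH 2.

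No gene passed the test between EE and SH hippocampus. Of 13344 genes with a mean of at least 1 FPKM, limma called 0, or 0%, with a Benjamini-Hochberg adjusted threshold of 0.05, and voom on the recovered reads called none either. Before adjustment 503 genes (3.77%) had p under 0.05, of which 94 (0.704%) were higher in EE and 409 (3.07%) lower. That total share is below the one that a threshold of 0.05 passes where nothing differs. The difference was positive for 47.2% of all genes. The groups did not overlap for 9.91% of genes, with all 3 EE libraries above all 3 SH libraries for 345 (2.59%) and below them for 977 (7.32%). With 3 libraries per group, a random order of the libraries would also separate the groups in about the same total share. The limma adjusted p was 0.633 for Egr1 and 0.9996 for each other gene with a fitted difference below, so each of those is a measured difference that did not pass. Differences are EE minus SH on the scale of log2(FPKM + 1), which understates differences of low genes, with their standard error.

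The depth and the spread between libraries set how narrow the interval of each gene's difference was. The median 95% interval reached 0.34 to either side of a gene's log2 difference. For 12661 genes, or 94.9%, the interval lay wholly between -1 and 1, and for 7652 genes, or 57.3%, it lay between -0.5 and 0.5. These intervals are for 1 gene at a time and are not adjusted for the number of genes tested. They do not give the smallest difference that the test could call, since Egr1, at 1.73, was not called.

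Immediate early genes held the gene with the smallest p and 6 others with EE wholly above SH. Of 32 listed, 25 were tested, 16 had a positive difference and 9 a negative one, with a median of 0.16 beside -0.01 over all genes tested. Without EE replicate 3 the median was 0.04. In 7 of the 25 (28%, against 2.59% of all genes) every EE library was above every SH library, and in 0 was it below. With the length and GC trend described below removed, it was 4 of 25 (16%), against 3.27% of all genes. Egr1, a zinc finger transcription factor induced by growth factor and synaptic signals, was at 14.1, 17.1 and 22.5 FPKM in EE and at 4.51, 3.74 and 5.76 FPKM in SH. The lowest EE library was more than 2-fold above the highest SH library, with a log2 difference of 1.73 ± 0.20 (SE, 95% interval 1.26 to 2.19). The gene lies on chromosome 18 of mm10, from 34859823 to 34864984.

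Fos, the AP-1 subunit most used to mark recently active neurons, was at 5.35, 6.53 and 6.97 FPKM in EE and at 2.29, 0.643 and 1.63 FPKM in SH (log2 difference 1.58 ± 0.26, 95% interval 0.97 to 2.19). These levels rest on 205 to 303 recovered reads per EE library and 26 to 86 per SH library. The groups were well apart for both genes, and with each library left out in turn the difference ran from 1.56 to 1.88 for Egr1 and from 1.3 to 1.8 for Fos. Fos lies on chromosome 12 of mm10, from 85473890 to 85477273.

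The other 5 had smaller differences. Ier2, a nuclear protein induced by serum, was at 18.6, 17.8 and 14.4 FPKM in EE and at 11.7, 12.1 and 13.8 FPKM in SH (log2 difference 0.40 ± 0.12). Dusp1, a phosphatase that switches off MAP kinases, was at 14.6, 13.9 and 15.4 FPKM in EE and at 12.4, 11.5 and 12.4 FPKM in SH (log2 difference 0.25 ± 0.09). Ier2 came close between its lowest EE and highest SH library, while Dusp1 was tight within each group. Klf2, a Krüppel-like factor with high levels in endothelium, had a log2 difference of 0.43 ± 0.19, Jun, the partner of Fos in AP-1, one of 0.19 ± 0.11, and Arc, a regulator of synaptic receptor uptake, one of 0.24 ± 0.17 at 1.45, 1.46 and 2.33 FPKM in EE and 1.20, 1.34 and 1.38 FPKM in SH.

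The difference was not shared by the whole class. Nr4a3, a nuclear receptor of the same class, was at 26.7, 25.3 and 16.8 FPKM in EE and at 23.4, 42.7 and 30.2 FPKM in SH (log2 difference -0.45 ± 0.25), so its groups overlapped. Nr4a1 and Junb had log2 differences of 0.18 ± 0.17 and 0.16 ± 0.15, and Btg2, an antiproliferative gene, one of -0.38 ± 0.22, all with overlapping groups. Fosb, Fosl1, Egr2, Egr4, Atf3, Npas4 and Bdnf were not tested, being below 1 FPKM on average or not listed in all 6 tables.

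**Figure D2:**
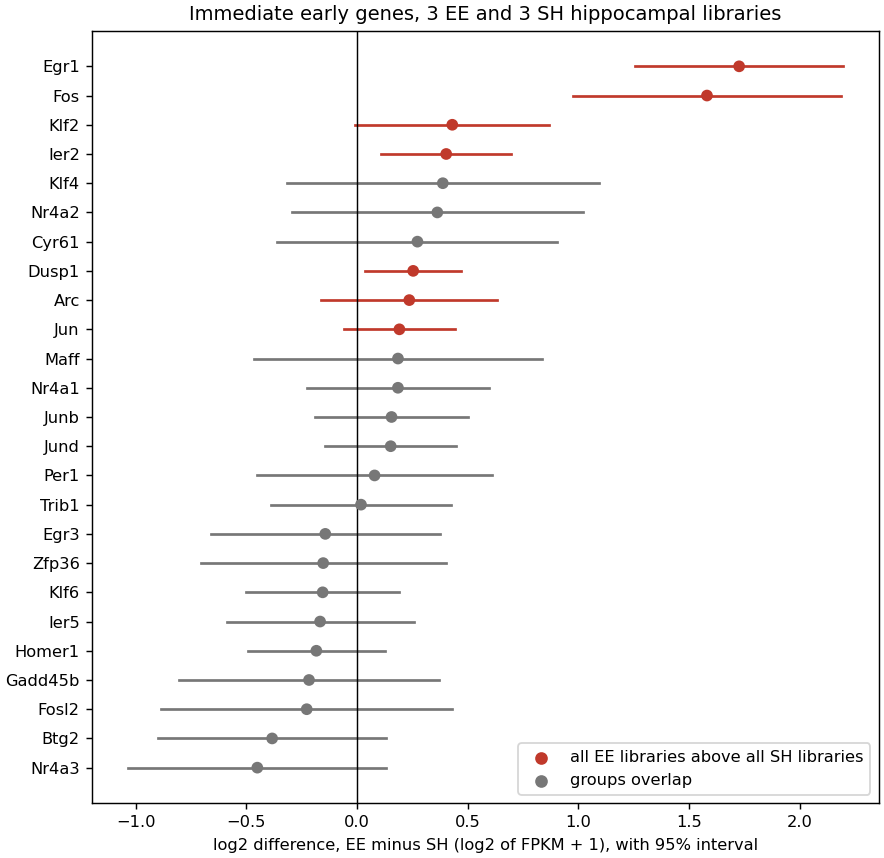
Log2 difference (EE minus SH) of the 25 tested immediate early genes with 95% intervals from limma, in red where all EE libraries lay above all SH libraries. Egr1 and Fos stand apart at 1.73 and 1.58, and the other 23 lie between -0.45 and 0.43.

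Promoter sequence is shown for Fos and Dusp1 because both hold the letters of a CREB-type element, one of the routes by which stimuli reach these genes. The 250 bases before the RefSeq start (GRCm38.p6, the build of mm10) are given 5′ to 3′ on the gene's own strand, at chr12:85473640-85473889 on the plus strand for Fos and chr17:26508473-26508722 on the minus strand for Dusp1. Capitals mark TGACGT on either strand, where 2 overlapping matches on opposite strands make up TGACGTCA, and TATAAA.
Fos: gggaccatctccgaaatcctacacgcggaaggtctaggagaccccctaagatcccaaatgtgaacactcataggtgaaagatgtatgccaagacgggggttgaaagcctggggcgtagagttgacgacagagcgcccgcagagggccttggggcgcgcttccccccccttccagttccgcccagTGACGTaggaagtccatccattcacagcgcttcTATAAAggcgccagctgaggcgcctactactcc
Dusp1: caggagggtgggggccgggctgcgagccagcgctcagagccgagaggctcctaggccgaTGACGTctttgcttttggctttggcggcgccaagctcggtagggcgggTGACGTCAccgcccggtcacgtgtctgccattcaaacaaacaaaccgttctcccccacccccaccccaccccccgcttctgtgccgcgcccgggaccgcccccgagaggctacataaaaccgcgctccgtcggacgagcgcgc

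TGACGT on either strand was found in 7 of the 19 immediate early genes that matched the RefSeq table by symbol. Some genes have several starts: by window it was 7 of 23 for these genes (30.4%), beside 6.47% of all 32851 promoter windows of that length. The 7 were Fos, Dusp1, Nr4a3, Btg2, Per1, Maff and Homer1, and only Fos and Dusp1 of them had EE wholly above SH. Of all 19 genes, 4 had EE wholly above SH, beside 2.59% of all genes tested. Egr1 and Ier2 were not scanned, so whether they hold TGACGT is not known here. In Fos the match begins at -66 and TATAAA at -33 relative to the start, and in Dusp1 the matches on the gene's strand begin at -191 and -143. Nr4a3 holds TGACGT at -231, -205 and -147 with overlapping groups.

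The genes that act upstream of the immediate early class or feed back on it had small differences. Of 24 tested regulators 9 were positive, the median was -0.07, and all 24 intervals lay between -1 and 1. Dusp6, a phosphatase specific for ERK and itself induced by ERK signalling, had EE wholly above SH, at 14.0, 17.4 and 16.5 against 13.4, 13.5 and 13.6 FPKM (log2 difference 0.22 ± 0.11). It was the 1 of the 24 with EE wholly above SH (4.17%, against 2.59% of all genes). EE lay wholly below SH for 3 (12.5%, against 7.32%). Among these 3 were the SRF coactivator Mkl2 and the CREB coactivator Crebbp, with log2 differences of -0.32 ± 0.13 and -0.17 ± 0.10.

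Of the gene lists, that of zinc finger genes held the most members with EE wholly below SH. As background, most genes with a Zfp name encode DNA-binding proteins with zinc fingers, many of them carrying a KRAB domain that recruits a silencing complex, and they lie in clusters that hold many similar copies, so reads may be split between relatives. Of 291 tested, 254 had a negative difference and 37 a positive one, with a median of -0.20. EE lay wholly below SH for 111 of the 291 (38.1%, against 7.32% of all genes) and wholly above for 4 (1.37%, against 2.59%). The 4 were Zfp207, Zfp580, Zfp628 and Zfp651, at log2 differences of 0.09 to 0.26. Zfp36, an RNA-binding protein, is also among the immediate early genes. By unadjusted p under 0.05, 69 were lower and 2 higher.

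The mean of log2(FPKM + 1) over the 291 genes was 2.62, 2.68 and 2.53 in EE replicates 1, 2 and 3 and 2.79, 2.79 and 2.87 in the corresponding SH libraries, so the groups did not overlap. The median was negative on each of the 20 chromosomes that held tested members. On chromosome 7, which held 77 of them, 69 were negative (median -0.24), and on chromosome 17 28 of 32 (median -0.24), while the median of the other genes on these chromosomes was 0.02 on both.

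Zfp719 had the largest difference of the zinc finger genes named here. It was at 1.58, 2.59 and 1.20 FPKM in EE and at 5.21, 3.68 and 5.57 FPKM in SH (log2 difference -1.08 ± 0.22), and it lies on chromosome 7 of mm10, from 43579610 to 43593235. Zfp763 was at 5.15, 6.17 and 4.21 FPKM in EE and at 8.59, 8.03 and 10.4 FPKM in SH (log2 difference -0.70 ± 0.16). Both had every EE library well below the lowest SH library. Zfp418 had a log2 difference of -0.69 ± 0.15, Zfp37 one of -0.58 ± 0.13 and Zfp87 one of -0.55 ± 0.11, each also without overlap.

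Transcript length and base composition moved with these genes. The 977 genes with EE wholly below SH had a median GC content of 46.0% and a median longest transcript of 4708 nt, those with EE wholly above 51.5% and 2257 nt, and all tested genes 49.9% and 3442 nt. The Zfp-named genes had a median GC content of 45.3% and 3683 nt. The deviation of a library from the mean of all 6 was related to length with a Spearman rho across genes, which are not independent, of -0.48 in EE replicate 1, -0.15 in EE replicate 3 and 0.03 to 0.23 in the other 4. Its rho with GC content was 0.20, 0.03 and 0.13 in EE replicates 1, 2 and 3 and -0.15, 0.10 and -0.29 in SH replicates 1, 2 and 3. With each library's trend on length and GC content removed, EE lay wholly below SH for 85 of 291 Zfp-named genes (29.2%) and for 5.14% of all 13082 genes. The median of the Zfp-named genes ran from -0.25 to -0.14 over every setting tried.

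**Figure D3:**
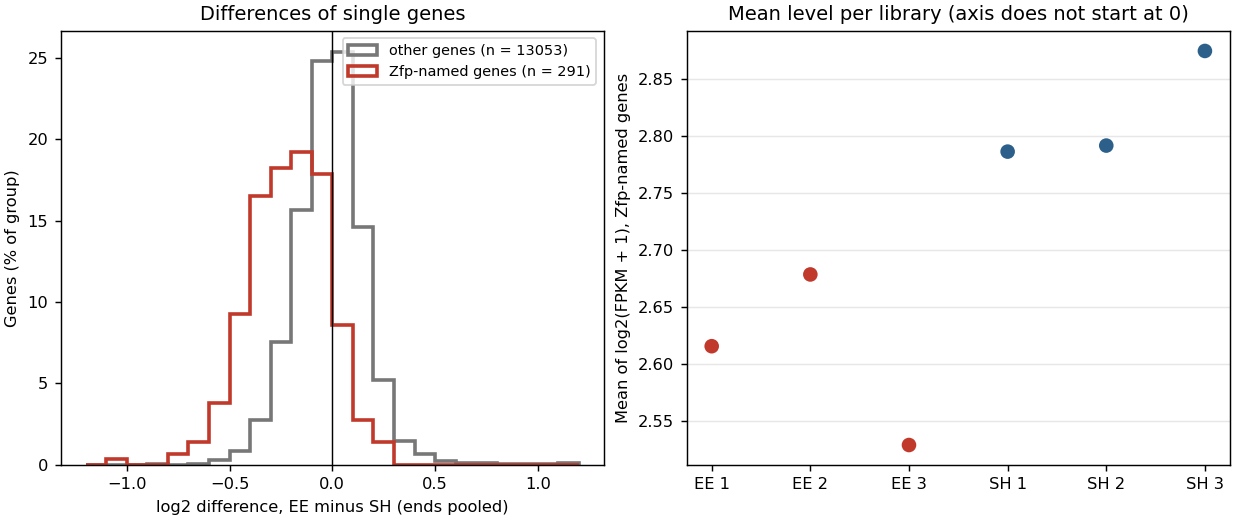
Left, share of genes by log2 difference (EE minus SH) in bins of 0.1 for the 291 Zfp-named genes and the other tested genes; right, mean log2(FPKM + 1) of the Zfp-named genes in each library (axis not from 0). The Zfp-named genes are shifted to negative values with a median of -0.20, and the 3 EE libraries, at 2.53 to 2.68, lie below the 3 SH libraries, at 2.79 to 2.87.

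Other genes with EE wholly below SH came from varied functions. Kbtbd7, an adaptor of the cullin-3 ubiquitin ligase, was at 6.12, 6.92 and 5.90 FPKM in EE and at 9.07, 9.45 and 10.9 FPKM in SH (log2 difference -0.56 ± 0.12). Ubr1, a ubiquitin ligase of the N-degron pathway, was at 5.52, 7.03 and 5.88 FPKM in EE and at 9.39, 8.66 and 9.57 FPKM in SH (log2 difference -0.52 ± 0.12). Rlf, a zinc finger protein without a Zfp name, had a log2 difference of -0.47 ± 0.11.

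Of the CLK kinases, which phosphorylate the SR proteins of the splicing machinery, Clk1 was the 1 with EE wholly below SH. Clk1 was at 19.6, 18.9 and 16.3 FPKM in EE and at 32.3, 28.8 and 27.6 FPKM in SH, with a log2 difference of -0.67 ± 0.11 (95% interval -0.92 to -0.41), and it lies on chromosome 1 of mm10, from 58410189 to 58424066. The highest EE library was well below the lowest SH library. Clk2, Clk3 and Clk4 had log2 differences of 0.01 or less in size, with 95% intervals of -0.27 to 0.26 for Clk2, -0.20 to 0.23 for Clk3 and -0.20 to 0.21 for Clk4. None of these 3 intervals reaches that of Clk1, although the difference between the genes was not itself tested.

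Other splicing regulators had differences of either sign, and their counts moved with the scaling. Over 32 tested members of the list, 19 were positive and the median was 0.01, with EE wholly above SH for 3 (9.38%, against 2.59% of all genes) and wholly below for 3 (9.38%, against 7.32%). With the length and GC trend removed it was 9 above (28.1%, against 3.27%) and 1 below, with a median of 0.10, and with median-of-ratios scaling 5 above (15.6%, against 3.51%) and 1 below. Tra2a, an activator of exon inclusion, was at 38.6, 40.4 and 39.7 FPKM in EE and at 31.3, 32.3 and 24.2 FPKM in SH (log2 difference 0.43 ± 0.12). The SR proteins Srsf5 and Srsf11 had log2 differences of 0.22 ± 0.10 and 0.12 ± 0.08, and Srsf2 and Rbm25, a further splicing factor, of -0.14 ± 0.10 and -0.10 ± 0.08. Pnisr, a nuclear speckle protein, had one of 0.31 ± 0.13 with overlapping groups.

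Mir124a-1hg, a noncoding RNA from which the microRNA miR-124 of neurons is cut, was at 5.22, 7.32 and 5.11 FPKM in EE and at 10.1, 15.2 and 16.7 FPKM in SH. The log2 difference was -1.11 ± 0.21 (95% interval -1.60 to -0.62), and the gene lies on chromosome 14 of mm10, from 64587331 to 64593961. These libraries measure the host transcript and not the mature microRNA. Of 17 tested nuclear noncoding RNAs, 12 were positive with a median of 0.13, which was 0.02 without SH replicate 3, 0.05 without SH replicate 2 and 0.05 without EE replicate 3. Mir124a-1hg was the 1 member with EE wholly below SH (5.88%, against 7.32% of all genes).

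**Figure D4:**
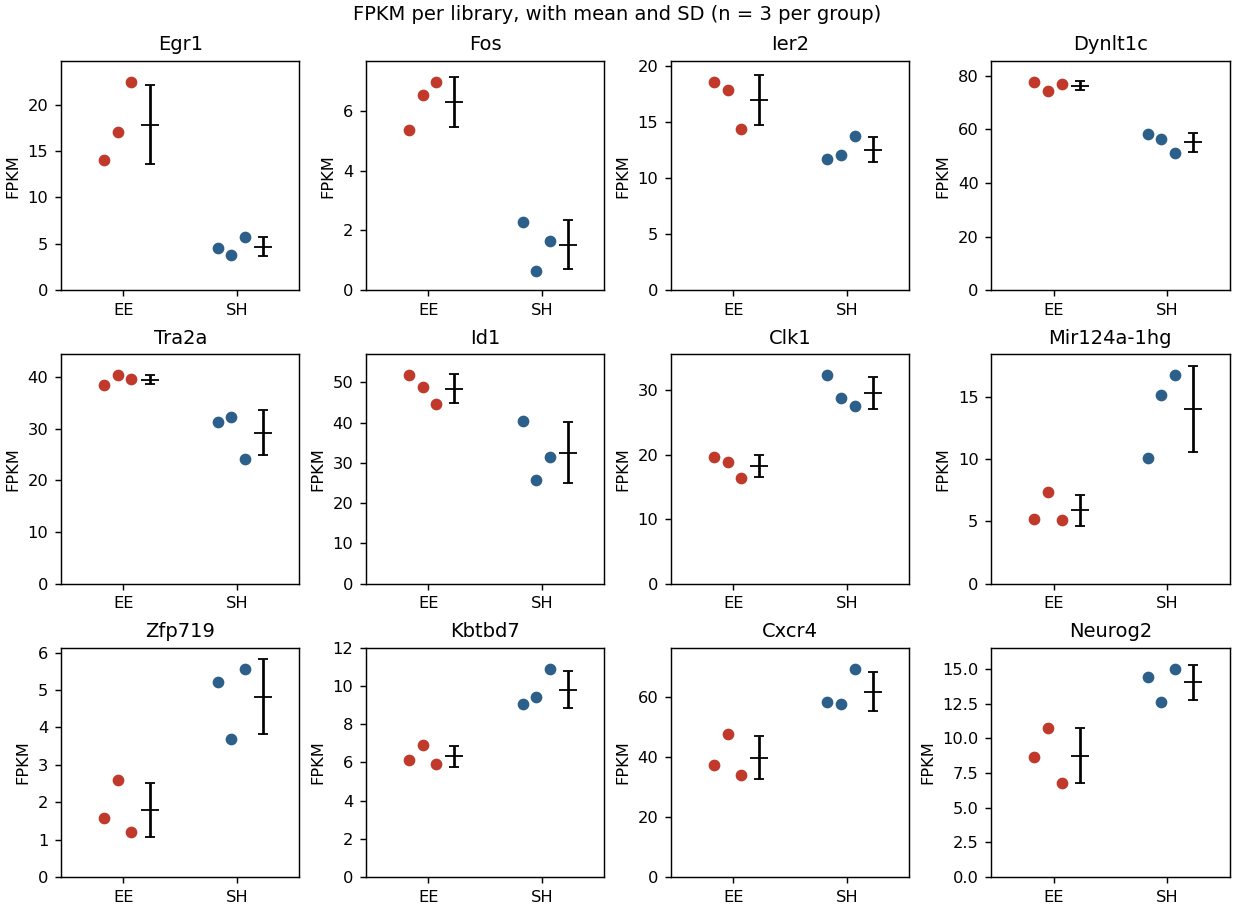
FPKM of 12 genes in each library (points, EE red and SH blue), with mean and SD (bars, n = 3 per group), on axes that start at 0. Egr1, Fos, Ier2, Dynlt1c, Tra2a and Id1 have every EE library above every SH library, and Clk1, Mir124a-1hg, Zfp719, Kbtbd7, Cxcr4 and Neurog2 every EE library below.

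Genes of neurogenesis were mostly at negative differences. In bulk tissue, fewer cells of a type and less RNA per cell cannot be told apart. Of 20 tested genes that mark intermediate progenitors or newborn neurons, 17 were negative, with a median of -0.14, and 1 of them, Neurog2, had EE wholly below SH (5%, against 7.32% of all genes). Over this list the mean of log2(FPKM + 1) was 4.71, 4.79 and 4.47 in EE replicates 1, 2 and 3. In SH replicates 1, 2 and 3 it was 4.77, 4.84 and 4.90, so the groups overlapped. In cortex replicates 1 to 3 the list had 11 negative genes of 20 and a median of -0.02. Neurog2, which commits progenitors to the glutamatergic fate, was at 8.65, 10.8 and 6.79 FPKM in EE and at 14.4, 12.7 and 15.0 FPKM in SH (log2 difference -0.65 ± 0.16). Its difference was -0.79 to -0.49 with each library left out in turn. Eomes, the marker of intermediate progenitors, was at 22.9, 26.7 and 19.4 FPKM in EE and at 32.0, 23.3 and 29.1 FPKM in SH (log2 difference -0.28 ± 0.16), and its groups overlapped, as did those of Gadd45g (log2 difference -0.36 ± 0.19).

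Genes of G2 phase and mitosis were negative in 25 of 25, with a median of -0.22, but in none of them did EE lie wholly below SH. Aurka, a kinase of the mitotic spindle, was at 7.50, 7.31 and 5.08 FPKM in EE and at 10.9, 6.62 and 8.81 FPKM in SH (log2 difference -0.35 ± 0.20). The median was -0.04 without SH replicate 1 and -0.06 without EE replicate 3. The summed level of the list was 229, 259 and 187 FPKM in EE and 326, 202 and 255 FPKM in SH, highest in SH replicate 1, the library with the most choroid plexus RNA. With a covariate for the choroid plexus list the median was -0.29. Genes of DNA replication had a median of -0.01, with 15 of 25 negative.

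Radial glia genes split evenly, 12 positive and 12 negative of 24, with a median of 0.00. Slc1a2, a glutamate transporter of astrocytes, was the 1 with EE wholly below SH (4.17%, against 7.32% of all genes), at 25.2, 23.7 and 21.3 against 26.7, 26.0 and 28.9 FPKM (log2 difference -0.21 ± 0.10). With the length and GC trend removed the list held 0 such genes. Of 27 tested Notch and Wnt genes 19 were negative (median -0.10), led by the Wnt target Axin2 at -0.41 ± 0.18 and the receptor Fzd1 at -0.30 ± 0.12, both with overlapping groups. Id1, a BMP-induced inhibitor of proneural factors, was at 51.7, 48.9 and 44.6 FPKM in EE and at 40.5, 25.7 and 31.5 FPKM in SH (log2 difference 0.58 ± 0.16). It is one of the genes with EE wholly above SH.

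Migration and interneuron genes were led by Cxcr4, the receptor of the chemokine Cxcl12, which guides Cajal-Retzius cells, interneurons and dentate progenitors. It was at 37.6, 47.8 and 34.0 FPKM in EE and at 58.4, 57.9 and 69.6 FPKM in SH (log2 difference -0.64 ± 0.14, chromosome 1 of mm10, from 128588199 to 128592293). The groups did not overlap, and the difference was -0.77 to -0.53 with each library left out. Cxcr4 was the 1 of 22 tested GABA neuron genes with EE wholly below SH (4.55%, against 7.32% of all genes), in a list with a median of -0.08. Gad2, which makes GABA at terminals, had a log2 difference of -0.29 ± 0.16. Tiam2, an activator of Rac in extending neurites, and Rhobtb3, a Golgi-associated ATPase, had EE wholly below SH at -0.55 ± 0.18 and -0.50 ± 0.13. Gpr17, a receptor of committed oligodendrocyte precursors, was at 1.99, 2.01 and 1.55 FPKM in EE and at 4.15, 2.60 and 2.58 FPKM in SH (log2 difference -0.51 ± 0.18). It was the 1 of 12 tested oligodendrocyte lineage genes with EE wholly below SH (8.33%, against 7.32% of all genes). Of the 12, 8 were negative and 4 positive. Their median was -0.08, and ran from -0.23 to 0.003 with each library left out in turn.

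Synaptic and neurite genes had medians near 0 as groups, and each median could change sign with 1 library left out. The medians were 0.07 for 21 neurite and neurofilament genes, 0.06 for 26 presynaptic genes, -0.01 for 23 postsynaptic genes, 0.03 for 20 glutamate receptor genes and -0.07 for 19 GABA receptor and chloride transporter genes. Intervals lay wholly between -1 and 1 for 19 of 21, 25 of 26, 23 of 23, 20 of 20 and 18 of 19 of them. With each library left out in turn, the neurite median ran from -0.12 to 0.18 and the presynaptic one from -0.09 to 0.22. The postsynaptic median ran from -0.13 to 0.07, the glutamate receptor one from -0.05 to 0.19 and the GABA receptor one from -0.12 to 0.04. Stmn2, a growth cone protein of extending axons, had a log2 difference of 0.22 ± 0.19, and Snap25, a SNARE protein of vesicle release, one of 0.23 ± 0.19. The groups overlapped for both.

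Postsynaptic genes held 3 with EE wholly below SH (13%, against 7.32% of all genes). With quantile normalization it was 1 (4.35%, against 5.97%), and with the length and GC trend removed 2 (8.70%, against 5.14%). Lrrtm2, an adhesion protein of excitatory synapses, was at 4.04, 4.32 and 5.10 FPKM in EE and at 5.75, 6.25 and 7.89 FPKM in SH (log2 difference -0.47 ± 0.15). Dlg3, the scaffold protein SAP102, and Gphn, the scaffold of inhibitory synapses, had log2 differences of -0.26 ± 0.10 and -0.17 ± 0.09. On the presynaptic side Slc17a6, the vesicular glutamate transporter VGLUT2, had one of -0.39 ± 0.17 with overlapping groups.

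Genes of the AHR-Src pathway, the theme of the series title, gave small differences at the level of RNA. Ahr, the ligand-activated receptor itself, was at 0.975, 1.25 and 1.18 FPKM in EE and at 1.38, 1.22 and 1.41 FPKM in SH (log2 difference -0.13 ± 0.14, 95% interval -0.46 to 0.20). Src, a non-receptor tyrosine kinase, was at 27.8, 27.9 and 24.9 FPKM in EE and at 25.6, 32.6 and 26.5 FPKM in SH (log2 difference -0.06 ± 0.12, 95% interval -0.34 to 0.21). The groups overlapped for both.

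Of 14 tested genes of AHR and its targets 6 were positive and the median was -0.02. Tiparp, an AHR-induced enzyme that limits AHR signalling, had a log2 difference of -0.21 ± 0.14. Of 21 tested Src family kinases, adaptors and substrates 10 were positive and the median was -0.02. Pag1, an adaptor that brings the Src inhibitor Csk to the membrane, was at 4.83, 5.65 and 5.33 FPKM in EE and at 7.19, 6.70 and 7.20 FPKM in SH (log2 difference -0.36 ± 0.11). The adaptor Crkl also had EE wholly below SH, at -0.15 ± 0.09, which made 2 of the 21 (9.52%, against 7.32% of all genes).

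Short, highly expressed housekeeping genes lay on the positive side. Of 83 cytosolic ribosomal protein genes 78 were positive (median 0.16), with EE wholly above SH for 8 (9.64%, against 2.59%), among them Rpl13a at 0.41 ± 0.14 and Rps3a1 at 0.34 ± 0.13. Of 77 nuclear-encoded subunits of oxidative phosphorylation 72 were positive (median 0.15), with 5 wholly above (6.49%), led by Uqcr11 at 0.32 ± 0.11 and Ndufa4 at 0.29 ± 0.13. With quantile normalization EE lay wholly above SH for 4 ribosomal genes (4.82%) and wholly below for 3 (3.61%), and for 1 respiratory gene (1.3%) each way, against 2.57% above and 5.97% below of all genes. Their median transcripts were 1094 and 1186 nt, and the medians were 0.10 and 0.06 once the length and GC trend was removed. Without EE replicate 1, the library with the strongest length trend, both were 0.08. Rpl36, at 0.85 ± 0.42, rests on 116 FPKM in EE replicate 2 against 25.4 to 39.6 FPKM in the other 5 libraries.

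Dynein genes were positive in 18 of 20 (median 0.12), with 4 wholly above SH (20%, against 2.59%). Dynlt1c, a light chain of the dynein motor, was at 77.7, 74.4 and 77.0 FPKM in EE and at 58.1, 56.2 and 51.1 FPKM in SH (log2 difference 0.46 ± 0.09). It belongs to a cluster of near-identical copies, so its reads may be shared with them and the value is uncertain. Dynll1, an unrelated light chain, was at 131, 120 and 125 FPKM in EE and at 102, 103 and 94.7 FPKM in SH (log2 difference 0.32 ± 0.09), and both were tight within groups. Dync1i2 and Dctn2, an intermediate chain and a dynactin subunit, were the other 2, at 0.13 ± 0.08 and 0.13 ± 0.09.

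Genes of heat shock and the unfolded protein response were positive in 15 of 19 (median 0.17), with 4 wholly above SH (21.1%, against 2.59% of all genes). Hspa8, the constitutive cytosolic chaperone, was at 706, 771 and 750 FPKM in EE and at 628, 607 and 612 FPKM in SH (log2 difference 0.27 ± 0.11). Calr, a chaperone of the endoplasmic reticulum, was at 211, 231 and 213 FPKM in EE and at 203, 144 and 138 FPKM in SH (log2 difference 0.45 ± 0.16). Hspa8 was separated throughout, while the SH replicate 1 value of Calr came close to EE. Dnajb1 and Hsph1 were at 0.25 ± 0.10 and 0.18 ± 0.10, and Hspa5, the main chaperone of the unfolded protein response, was at 0.50 ± 0.18 with overlapping groups. Chac1, an enzyme that degrades glutathione and is induced in the unfolded protein response, had the lowest difference of the list, -1.09 ± 0.63. It was at 4.67, 0.977 and 1.52 FPKM in EE and at 4.80, 14.5 and 2.02 FPKM in SH, so its groups overlapped and SH replicate 2 was far above the other libraries.

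Txnip, a glucose-responsive inhibitor of thioredoxin, divided the SH libraries. It was at 59.1, 70.4 and 61.7 FPKM in EE and at 72.1, 25.4 and 25.6 FPKM in SH (log2 difference 0.80 ± 0.38), and without SH replicate 1 the difference was 1.28. Among further genes with EE wholly above SH and a small p were the RNA Snhg20 at 0.52 ± 0.15, the nucleolar protein Npm1 at 0.30 ± 0.09, the lysoplasmalogenase Tmem86b at 0.45 ± 0.13 and Sapcd1 at 0.66 ± 0.20. Supt4b, at 0.62 ± 0.17, is a processed pseudogene by its annotation and may share reads with its parent gene.

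Lists of other cell types turned on single libraries. The 21 choroid plexus genes had a median of 0.71, which was -0.06 without EE replicate 2, -0.03 without SH replicate 2 and 1.96 without SH replicate 1, and in none of them were the groups apart. Of 23 microglia and macrophage genes 22 were positive with a median of 0.18, which was -0.11 without SH replicate 2, where the summed list was 111 FPKM against 207 to 316 FPKM in the other 5. Trem2 and Tyrobp, a receptor and its adaptor on microglia, had log2 differences of 0.37 ± 0.28 and 0.39 ± 0.30. Meninges, with a median of 0.21, turned to -0.34 without SH replicate 2, and endothelium and pericytes had medians of 0.00 each.

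**Figure D5:**
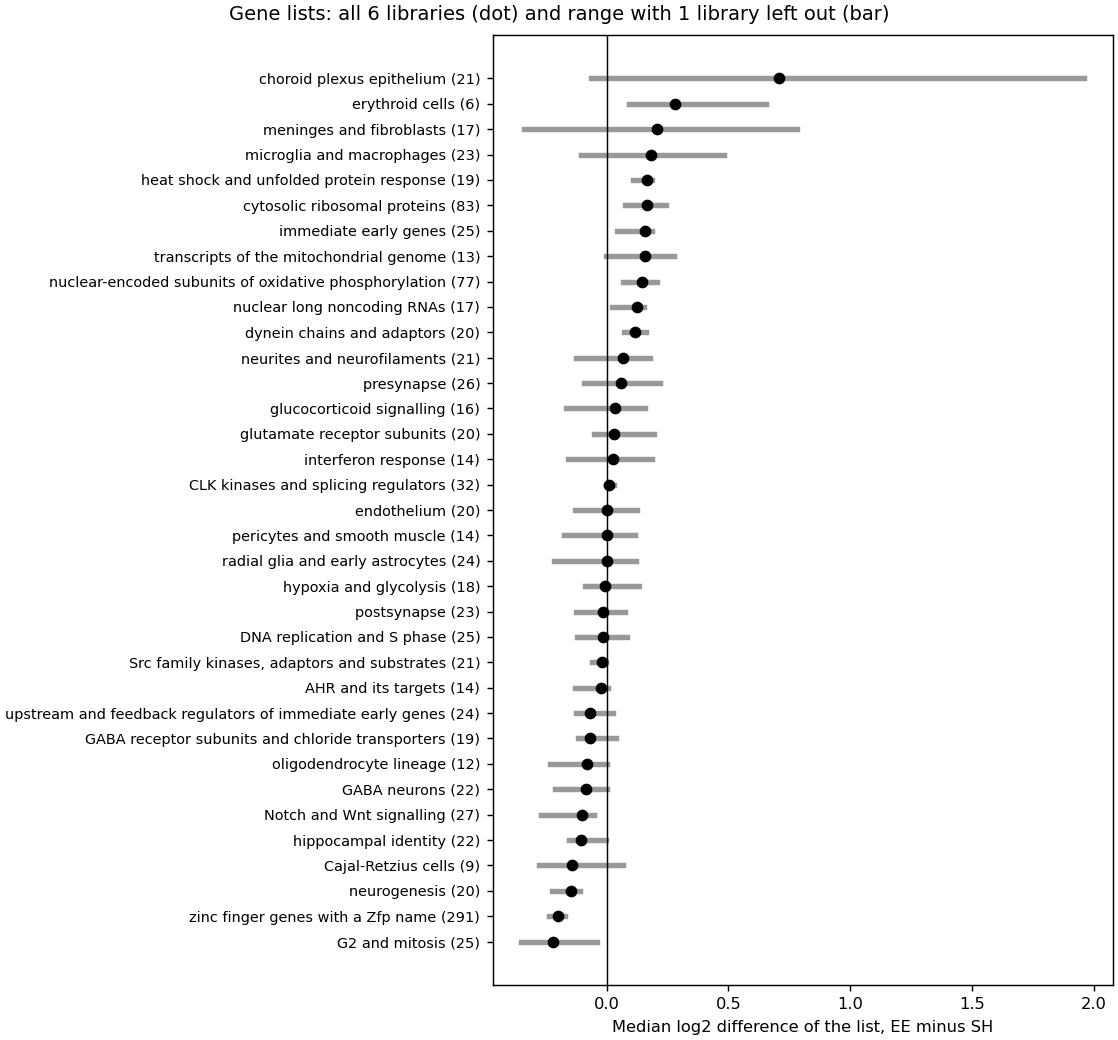
Median log2 difference (EE minus SH) of each gene list over all 6 libraries (dots), with the range of that median when 1 library is left out (bars) and the number of tested genes in brackets. The Zfp-named genes and neurogenesis stay below 0 and the dynein, heat shock and ribosomal lists above 0, while the choroid plexus, meninges and microglia lists cross 0.

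The response in hippocampus was compared with that in cortex by an interaction over 12 libraries, replicates 1 to 3 of both tissues. Of 13158 genes, limma called 0 (0%) at the same threshold, with 990 under an unadjusted p of 0.05 and a smallest adjusted p of 0.495. The 3 smallest p-values were those of Gm27199, Tmem86b and Tradd, an adaptor of the TNF receptor. Tmem86b had a log2 difference of 0.45 in hippocampus and -0.25 in cortex (interaction 0.69 ± 0.17), and Tradd 0.37 and -0.36 (interaction 0.72 ± 0.17).

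For 7 genes chosen after their values were seen, the difference in hippocampus was set beside that in cortex, whose libraries may come from the same litters. Egr1 had 1.73 in hippocampus and 1.28 in cortex (95% interval of the interaction -0.24 to 1.13), and Fos 1.58 and 1.18 (-0.37 to 1.17). Clk1 had -0.67 and -0.64 (-0.42 to 0.36), Mir124a-1hg -1.11 and -1.39 (-0.30 to 0.85), Cxcr4 -0.64 and -0.94 (-0.17 to 0.78), and Neurog2 -0.65 and -0.70 (-0.53 to 0.63). Ier2 had 0.40 and 0.04 (-0.15 to 0.88). All 7 had the same sign in both tissues, which is no test of sharing, because the genes were chosen with their values known. All 7 intervals hold 0, and those of Egr1 and Fos allow a difference of over 1 between the tissues. Of 289 Zfp-named genes in this fit, 253 were negative in hippocampus (median -0.20) and 168 in cortex (median -0.06). Of the 83 ribosomal protein genes 5 were negative in hippocampus (median 0.16) and 83 in cortex (median -0.66). The differences of these list medians between tissues were not tested. Cortex SH replicate 3 had a summed FPKM well above that of every other cortical library used. No cortical library was left out in turn, so how far the cortical values rest on that library was not tested.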

How the data were processed

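Total RNA was taken with Trizol and made into libraries with NEB's NEBNext Ultra RNA kit, per the labels' protocols. The authors deposited 1 table of FPKM per library. The tools listed by the submitters' processing notes are StringTie 1.3.4d, HISAT2 2.0.4, cutadapt 1.9, DESeq2 and edgeR, with the build mm10 and no role for each. Strandedness and annotation are not given in the sources used here. FPKM values are whole multiples of 1 read's worth, so reads were recovered up to a common factor (tolerance 0.003 reads, all 15247 genes), which gives the depths printed.

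Tests were two-sided with limma 3.58.1 (R 4.3.3; lmFit, eBayes with trend) on log2(FPKM + 1) of genes listed in all libraries of a fit with a mean of at least 1 FPKM, with Benjamini-Hochberg adjustment over all genes tested and a threshold of 0.05. The steps were tested on simulated data without differences in tissue content between libraries. That test does not show how large a difference limma could call in the real libraries. Groups came from sample titles. The interaction fit used 12 libraries, and cortex replicates 4 and 5 were not used.

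The comparison and its gene lists were chosen with earlier results of these data known. Genes named are those of the AHR-Src theme and leading genes of the series, the 12 higher and 12 lower with the smallest p, up to 4 per list, markers, the 6 higher and 6 lower with the largest difference at a mean of at least 10 FPKM without overlap, and the 3 smallest p of the interaction. Predicted and small RNA genes were passed over, and a few genes selected in this way are not reported here. Klf2, Jun, Arc, Nr4a3, Nr4a1 and Junb among the immediate early genes, Clk2 to Clk4, Srsf2, Srsf11, Rbm25, Crebbp, Dctn2, Hsph1, Chac1, Tiam2, Rhobtb3 and the 4 higher Zfp-named genes were named after their values were seen. Positions, lengths and GC content came from GENCODE M21 (mm10), with 96.4% of symbols matched; 24 symbols turned into dates are not named and 1 duplicated symbol was left out. Alternatives were other scalings, filters, pseudocounts and variance models, a replicate block and voom on recovered reads. Others were removal of the length and GC trend, a choroid plexus covariate and leaving out each hippocampal library. A term for Xist-positive libraries was added after the data were seen.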

Additional observations from a re-analysis of the deposited data

How the results depend on the processing

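Between EE and SH hippocampus, 0 genes were called under each of the 18 alternatives, and the interaction with cortex called 0 under each of its 14. The smallest adjusted p over the alternatives, 0.0730, came without SH replicate 1. Genes at an unadjusted p under 0.05 numbered 503 with all libraries, 324 with a mean of at least 5 FPKM, 949 with the choroid plexus covariate and 188 to 1037 with 1 library left out: 228 without EE replicate 1, 617 without EE replicate 2, 202 without EE replicate 3, 1037 (562 higher, 475 lower) without SH replicate 1, 946 without SH replicate 2 and 188 without SH replicate 3. The share of higher genes also moved with the scaling, from 94 of 503 to 118 of 441 by median-of-ratios scaling, 106 of 390 by quantile normalization and 126 of 384 with the length and GC trend removed. Whether equal replicate numbers pair the samples is not known. The deviations of same-numbered libraries had correlations of -0.10, -0.56 and 0.44. These values cannot decide it, since the libraries differed most in choroid plexus genes. The replicate block gave 245 genes at an unadjusted p under 0.05 and called 0.

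Of the named genes with fitted values, 82 of 87 kept their sign in every setting, and 12 of the 35 lists did. The 5 exceptions lay near 0. Src ran from -0.13 without SH replicate 1 to 0.044 without SH replicate 2, and Rbm25 was at 0.018 with the length and GC trend removed. Clk2 was at 0.0192 with median-of-ratios scaling, 0.055 with quantile normalization and 0.00550 with the choroid plexus covariate. With 1 library left out, Clk2 ran from -0.053 to 0.027, Clk3 from -0.028 to 0.063 and Clk4 from -0.022 to 0.033. With quantile normalization EE lay wholly above SH for 6 of 25 immediate early genes (24%) and 2 of 20 dynein genes (10%), against 2.57% of all genes. For genes of heat shock and the unfolded protein response it was 3 of 19 (15.8%). The causes were not tested. Depth limits the low genes most, since Fos in SH replicate 2 rests on 26 recovered reads.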
